A study of Sus scrofa with 24 samples.

Results

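Glucocorticoid signalling was described here through 7 genes: the receptor NR3C1, the activating enzyme HSD11B1, the chaperone FKBP5 and the transcripts TSC22D3, KLF9, SGK1 and DUSP1, which the hormone-bound receptor is known to regulate. Members were the probe sets whose single annotated gene symbol is 1 of these 7, and 13 of the 23935 probe sets tested qualified, 7 of the 6765 genes that have such a probe set. NR3C1 has 4 probe sets, FKBP5, TSC22D3 and KLF9 have 2 each, and SGK1, HSD11B1 and DUSP1 have 1. Every gene number behind them is listed for pig under the same symbol, except that of the dimmer KLF9 probe set, which was not found.

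The study profiled total RNA from offspring of German Landrace gilts, young female pigs in their first pregnancy, on Affymetrix Porcine Genome arrays. All 4 groups come from mothers on the gestational high protein (HP) diet, so no group here received another diet and the comparisons are between ages only. The groups are fetuses at 94 days post conception (dpc) and animals at 1, 28 and 188 days of age (days post natum, dpn), with 6 animals each, 1 array per animal, taken from 3 gilts per stage. The labels name no mother, sex or array batch, so siblings cannot be recognised and the p-values, which count 6 independent animals per stage, may be too small.

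Cortisol enters the cell freely and binds the glucocorticoid receptor, which waits in the cytoplasm in a complex with heat shock proteins and then moves to the nucleus to switch target genes on or off. HSD11B1 regenerates cortisol from inactive cortisone inside the cell, HSD11B2 does the reverse, and FKBP5, itself a target, lowers the affinity of the receptor for the hormone. In the pig, as in other mammals, fetal cortisol rises before birth and prepares organs for life outside the womb, and in skeletal muscle glucocorticoids are known for shifting fuel use and for protein breakdown.

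Values are signals, linear intensities scaled per array, and a level is the geometric mean of 6 animals with the SD on the log2 scale. A signal of 74.7, the 95th percentile of control probe sets that match no pig transcript, served as the background level. Levels of different probe sets were not compared, since each has its own binding strength. Differences are log2 values of the later minus the earlier stage with the SE from limma, and a difference passed the test at a Benjamini-Hochberg adjusted p of at most 0.05 over all 23935 probe sets. The 6 comparisons share arrays and are not independent of each other.

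The labels call the tissue liver while the series title speaks of muscle. The median of 13 skeletal muscle markers lay between the 99.4 and 99.9 percentile of each array, and that of 18 liver markers between the 17.0 and 98.5 percentile. The sum of the liver markers' signals was 51678 to 318206 in animals 1 to 3 of 188 dpn against 1470 to 2827 in animals 4 to 6 (a number only names an animal within its stage). At the other stages it was 8437 to 63775 in the fetuses, 3237 to 44313 in the newborns and 3494 to 9225 at 28 dpn, so that 1 fetus exceeded the lowest of these 3 arrays, which are called liver-rich only within 188 dpn. In animals 1 to 3 of 1 dpn the 5′ to 3′ signal ratio of the EF1A control transcript, a measure of intact RNA, was 0.0963 to 0.135, against 0.512 to 1.05 in the other 21 arrays. Among those it was 0.988 to 1.05 in the fetuses, 0.670 to 0.703 in newborns 4 to 6 and lower still at 188 dpn (0.512 to 0.656). For the GAPDH control, newborns 4 to 6 (0.907 to 0.996) lay above the fetuses (0.780 to 0.870). The EF1A ratio thus also set the fetuses apart from all later stages. Its part in the differences to 94 dpc was not tested, and leaving out newborns 1 to 3 does not remove it. Animal 5 of 94 dpc had a summed signal of macrophage markers of 27184 against 3407 to 4709 in the other fetuses. Values without the liver-rich arrays, newborns 1 to 3 or fetus 5 are given beside many member results and some list counts. They are not given for the chaperones across birth and from 1 to 28 dpn, nor for the targets in defence, clock and transport. Differences of single list genes come from all arrays unless stated, so those that involve 1 dpn include newborns 1 to 3.

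Over the 4 stages, all 7 genes differed by the brightest of their probe sets (limma F test). Among all 13 probe sets 10 passed, against 52.3% of all probe sets tested. By the brightest probe sets receptor and targets did not move together. NR3C1 and SGK1 were highest before birth, FKBP5, TSC22D3, KLF9 and HSD11B1 were lowest there, and DUSP1 was lowest at 1 dpn and highest at 188 dpn. For NR3C1 the fetal level did not pass against 28 or 188 dpn. Its probe sets Ssc.15952.1.S1_at and Ssc.15952.1.A1_at were highest at 28 dpn and at 1 dpn. The ratio of the highest to the lowest stage was 11.1 for FKBP5, 9.18 for NR3C1, 4.88 for KLF9, 4.42 for HSD11B1, 2.96 for TSC22D3, 2.15 for SGK1 and 2.00 for DUSP1. The FKBP5 ratio is taken against a fetal level of 111, near the background level, with 1 fetus under it. The NR3C1 ratio is taken against a 1 dpn level of 82.7, with newborns 1 to 3 under the background level. In newborns 4 to 6 the NR3C1 level was 253. As these are whole tissue samples, fewer cells of a type and less RNA per cell cannot be told apart.

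**Figure D1:**
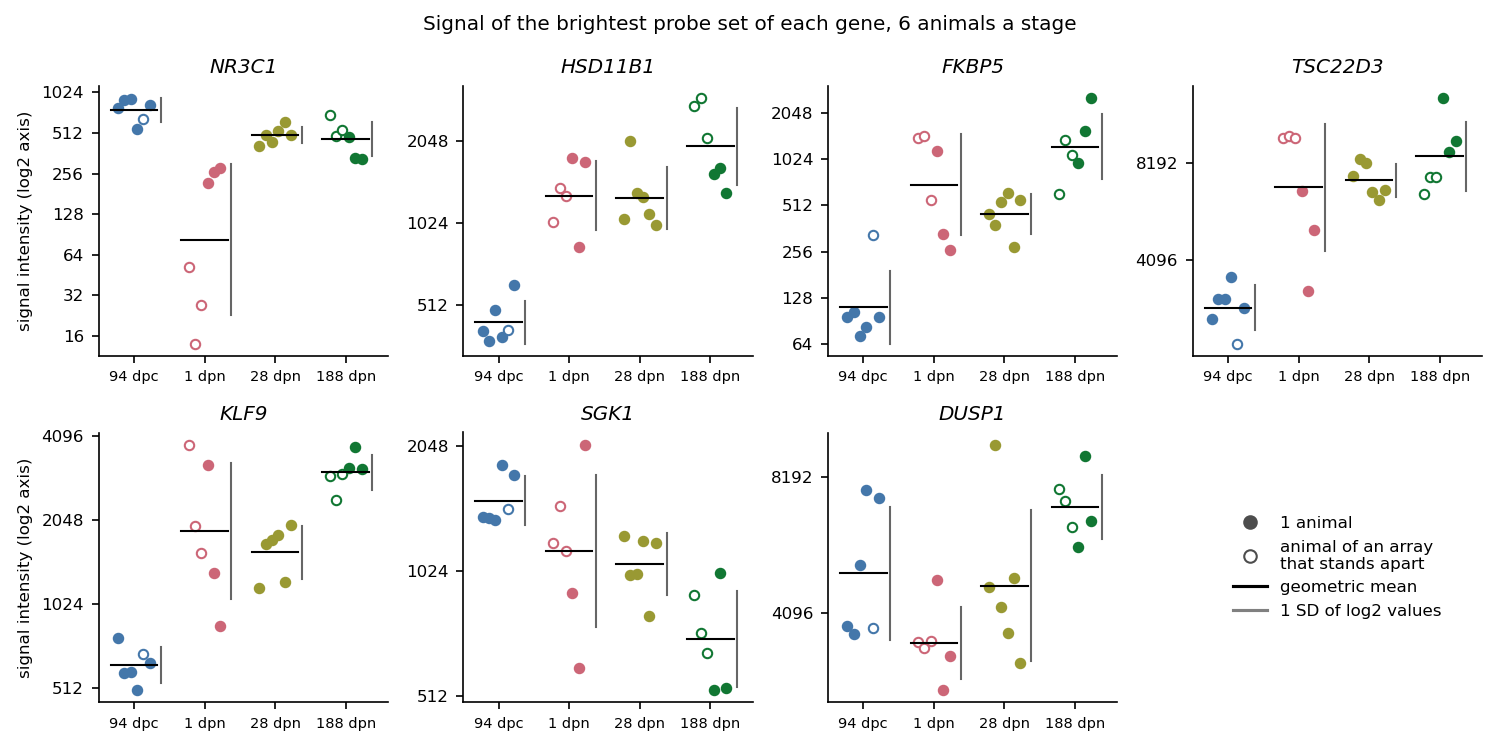
Signal of the brightest probe set of each of the 7 genes (log2 axis) by stage, 1 point per animal, with the geometric mean as a black line, 1 SD of the log2 values as a grey bar and open circles for the 7 arrays that stand apart. FKBP5, TSC22D3, KLF9 and HSD11B1 start lowest at 94 dpc, whereas NR3C1 drops from 551 to 916 at 94 dpc to 14.0 to 281 at 1 dpn, with open circles lowest.

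From 94 dpc to 1 dpn, across birth, 6 of the 13 member probe sets rose and 2 fell. By the brightest probe set of each gene 4 rose and 1 fell. The rises also include the dimmer FKBP5 probe set, under the background level at both stages. They include the NR3C1 probe set Ssc.15952.1.A1_at too, under that level in the fetuses. NR3C1 and TSC22D3 each had a probe set that rose and another that fell. Of all probe sets tested 10.1% rose and 20.8% fell in that comparison. For the brightest probe sets of the 7 genes the median difference was 1.25, against -0.15 for all probe sets. Over all 13 member probe sets, dim ones included, the median was -0.25. From 1 to 28 dpn 2 member probe sets rose and 1 fell (11.6% and 9.10% of all), with a median for the 7 genes of -0.03 against 0.02. The 1 that fell was the dimmer FKBP5 probe set, under the background level at both stages and not past the test in 26 of 35 alternatives. From 28 to 188 dpn 3 rose and 1 fell (4.12% and 10.5% of all), with medians of 0.58 for the 7 genes, 0.24 for the 13 probe sets and -0.18 for all. The 1 that fell was the NR3C1 probe set Ssc.15952.1.A1_at, also under the background level at both stages. Without the 3 liver-rich arrays of 188 dpn 2 member probe sets passed in all.

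Between the youngest and the oldest stage 6 member probe sets were higher and 1 was lower at 188 dpn than at 94 dpc (12.5% and 27.4% of all). Between these stages 5 of the 13 member probe sets had no overlap, against 29.1% of all probe sets. These 5 were each the brightest probe set of its gene. The median difference was 1.56 for the 7 genes, 0.49 for the 13 member probe sets and -0.29 for all probe sets. At 28 dpn 4 were higher than at 94 dpc and none was lower (10.4% and 17.5% of all). Against 1 dpn, 5 were higher and 2 lower at 188 dpn (14.1% and 20.8% of all). The medians of all probe sets depend on the scaling: after quantile normalization and after centring each array on its median they were 0.03 and 0.17 for 1 dpn against 94 dpc, and 0.05 and 0.25 for 188 dpn against 94 dpc. With the same alternatives the share of higher calls among all calls went from 32.8% to 47.5% and 59.2% in the first and from 31.3% to 48.6% and 60.8% in the second of these comparisons. No difference of a brightest member probe set that passed the test changed its sign under either.

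**Figure D2:**
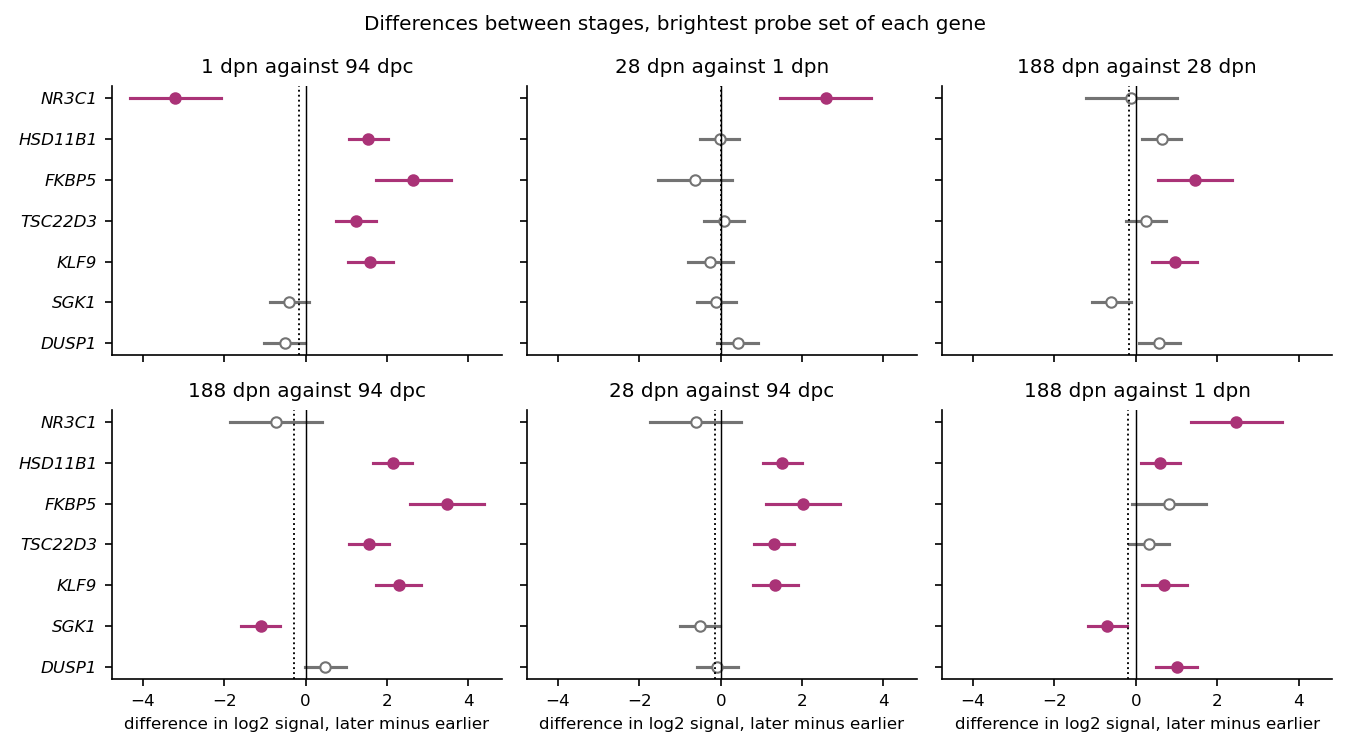
Log2 difference (later minus earlier stage) of the brightest probe set of each gene in the 6 comparisons, with 95% confidence intervals, filled where the limma adjusted p is at most 0.05, and the median of all probe sets as a dotted line. In 188 dpn against 94 dpc, FKBP5, KLF9, HSD11B1 and TSC22D3 lie to the right with differences of 1.56 to 3.47, and SGK1 lies to the left at -1.10.

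NR3C1, the receptor, carried the lowest signal of its brightest probe set (Ssc.15928.1.S1_at) on day 1 of life. The fetuses gave 551 to 916 with a median of 808, and the newborns 14.0 to 281 with a median of 136. At 28 dpn the range was 412 to 620.0 with a median of 495, and at 188 dpn it was 326 to 696 with a median of 481. Every newborn lay below every animal of the other 3 stages, and the newborns themselves split. Animals 1 to 3 gave 14.0 to 51.9, under the background level, and animals 4 to 6 gave 219 to 281.

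The level was 9.18-fold lower at 1 dpn than at 94 dpc (log2 difference -3.20 ± 0.54, adjusted p = 0.000109) and 5.98-fold higher at 28 than at 1 dpn (2.58 ± 0.54, adjusted p = 0.00162). Animals 1 to 3 of 1 dpn are those with the low EF1A ratio, and the part of RNA integrity in the NR3C1 value was not tested beyond leaving these arrays out. Without them the fall from 94 dpc to 1 dpn was -1.59 ± 0.23 (adjusted p = 4.88e-05) and the rise to 28 dpn was 0.97 (adjusted p = 0.00786). The later levels of 495 at 28 dpn and 459 at 188 dpn did not pass against 760 at 94 dpc with all arrays (188 dpn minus 94 dpc -0.73, 95% interval -1.85 to 0.40, adjusted p = 0.317). With the 3 arrays left out the spread was smaller, and that same difference of -0.73 had an adjusted p of 0.00329.

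The other NR3C1 probe sets gave a different picture. Ssc.15952.1.S1_at, at levels of 221, 146, 223 and 189 from the youngest to the oldest stage, passed in no comparison (1 dpn minus 94 dpc -0.59, adjusted p = 0.160). It spanned 67.1 to 280.0 at 1 dpn, and animals 2 and 3, which were among the lowest with the brightest probe set, were here the highest. Ssc.15928.1.A1_at passed in none either with all arrays and lay under the background level at the 3 later stages, but without newborns 1 to 3 its fall across birth passed (adjusted p = 0.0466), to signals of 30.1 to 41.3 that are all under the background. Ssc.15952.1.A1_at moved the other way across birth, from a level of 32.4, under the background, to 114 at 1 dpn (adjusted p = 0.0103, at least 1.53-fold higher against the background level) and back to 23.7 at 188 dpn. Without newborns 1 to 3 that rise did not pass (adjusted p = 0.105). Pairwise over the 24 arrays the 4 NR3C1 probe sets correlated with r from -0.48 to 0.26, and with all arrays the fall across birth passed in 1 of the 4.

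**Figure D3:**
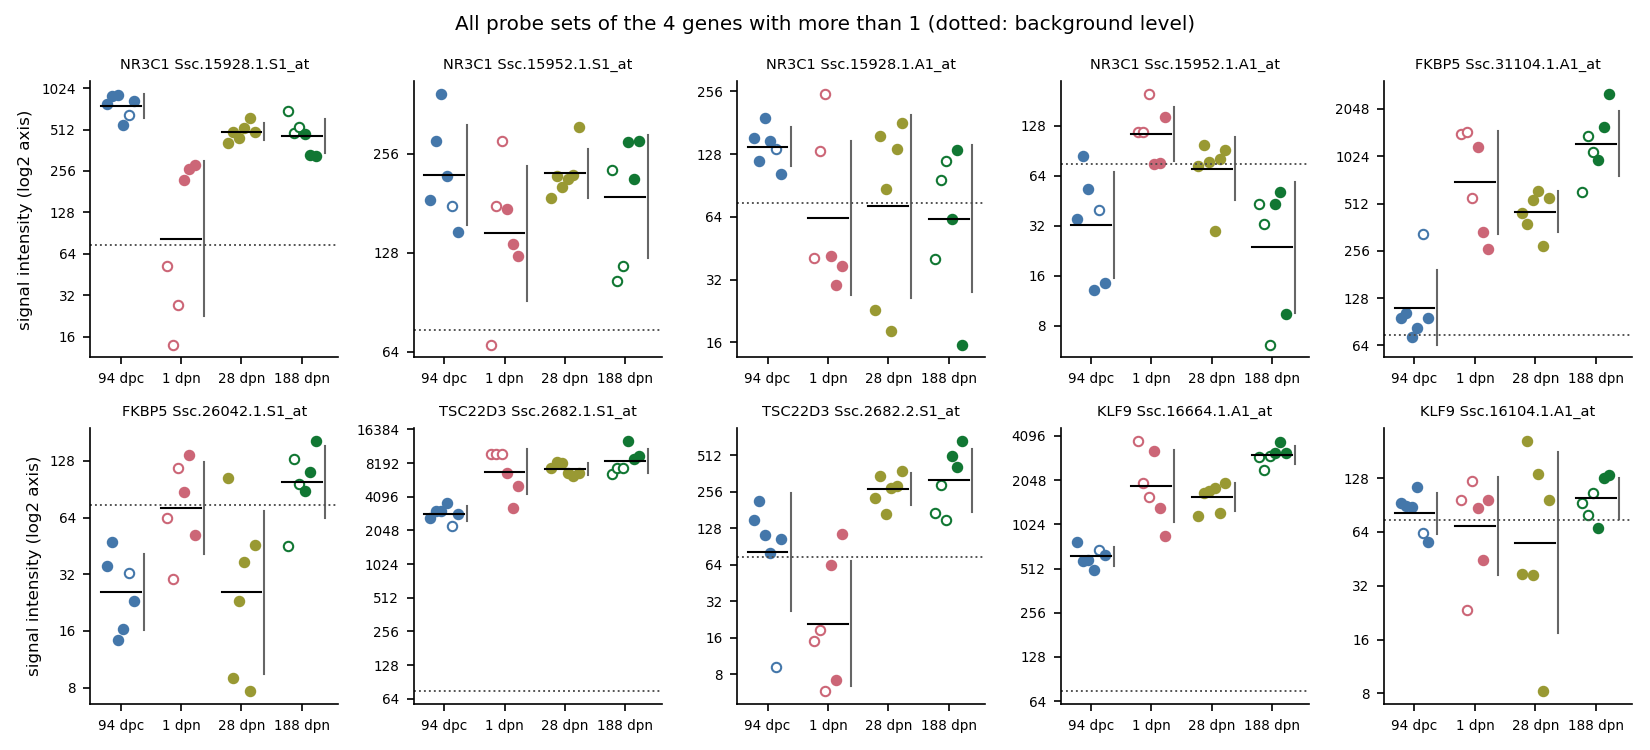
Signal (log2 axis) of all probe sets of the 4 genes with more than 1, by stage, 1 point per animal (open for the 7 arrays that stand apart), with the geometric mean as a black line, 1 SD of the log2 values as a grey bar and the background level of 74.7 dotted. The probe sets of a gene differ in course, and most of the dimmer ones lie around the background level at some stage.

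HSD11B1, which makes active cortisol within the cell, rose across birth and was highest at 188 dpn. The 6 fetuses gave 377 to 606 (median 412), and the newborns 834 to 1766 (median 1328). At 28 dpn the signals were 1011 to 2050 (median 1190.05) and at 188 dpn 1320.2 to 2934 (median 1865). All 18 postnatal animals lay above all 6 fetuses. The rise at birth was 2.91-fold (1.54 ± 0.23, adjusted p = 2.68e-05), or 1.62 without newborns 1 to 3 (adjusted p = 0.000469). At 188 dpn the level was 4.42-fold that of 94 dpc (2.15 ± 0.23, adjusted p = 1.07e-07).

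Between 1 and 28 dpn the HSD11B1 levels of 1289 and 1264 differed by -0.03 (adjusted p = 0.953). The level of 1957 at 188 dpn was 1.52-fold that of 1 dpn (0.60, adjusted p = 0.0463), a call lost in 22 of 36 alternatives, among them the omission of any 1 of 16 single arrays. Against 28 dpn the difference of 0.63 (95% interval 0.15 to 1.11) did not pass (adjusted p = 0.0717). HSD11B1 is abundant in liver and fat cells. Across birth 2 of the 18 liver markers fell and none rose, and 4 of the 9 fat cell markers rose and none fell. Of all probe sets tested 20.8% fell and 10.1% rose there. At 188 dpn the liver-rich animals 1 to 3 gave 2107 to 2934 and animals 4 to 6 gave 1320.2 to 1623, with no overlap. Without the liver-rich arrays the difference to 1 dpn was 0.21 (adjusted p = 0.605) and that to 28 dpn 0.24 (adjusted p = 0.686), while the difference to 94 dpc was 1.75 (adjusted p = 2.38e-05). The summed signal of the 9 fat cell markers ran from 8983 up to 12889 in the fetuses, from 12683 to 36242 in the newborns, from 31183 to 36424 at 28 dpn, and between 32453 and 43593 at 188 dpn. Its part in the rise was not tested.

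The opposing enzyme HSD11B2, which inactivates cortisol, stood in a list of 9 genes of cortisol supply and breakdown, of which 5 were measured. Its levels were 149 at 94 dpc, 154 at 1 dpn, 179 at 28 dpn and 79.4 at 188 dpn, so the last lay close to the background level of 74.7. In 188 dpn against 28 dpn HSD11B2 was the only gene of this list to pass (-1.17 ± 0.27, adjusted p = 0.00467), and this call was lost without the 3 liver-rich arrays. Its difference of -0.91 to 94 dpc (adjusted p = 0.00963) no longer passed after quantile normalization or median centring. CYP11A1, which starts steroid synthesis, was under the background level at all 4 stages, so its call in 28 dpn against 1 dpn (adjusted p = 0.0318) has no measured size. No gene of the list rose in any of the 6 comparisons, but STAR and ABCB1 were also under the background level at all 4 stages. Of the 5 measured genes 2 had a mean above that level. Among all probe sets 4.12% to 14.1% rose per comparison, and 10.5% fell from 28 to 188 dpn, so counts this small say little about the list.

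FKBP5, the co-chaperone that is both target and brake of the receptor, had the widest span of the 7 genes. That span is taken against a fetal level of 111, near the background level of 74.7. In the alternatives the difference of 188 dpn to 94 dpc ran from 2.70 to 4.00. The brighter FKBP5 probe set (Ssc.31104.1.A1_at) gave 72.9 to 103 in 5 fetuses and 329 in animal 5. After birth the signals were 263 to 1451 at 1 dpn (median 859), 274 to 617 at 28 dpn (median 492) and 610.3 to 2548 at 188 dpn (median 1231). All animals of 188 dpn lay above all fetuses, and the newborns overlapped the fetuses only through fetus 5.

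From 94 dpc to 1 dpn FKBP5 rose 6.28-fold (2.65 ± 0.44, adjusted p = 8.82e-05), and from 94 dpc to 188 dpn 11.1-fold (3.47 ± 0.44, adjusted p = 1.09e-06). Its level of 453 at 28 dpn against 699 at 1 dpn did not pass (-0.63, adjusted p = 0.358). The 2.73-fold rise from 28 to 188 dpn passed narrowly (1.45 ± 0.44, adjusted p = 0.0294), and leaving out any 1 of animals 1, 2 and 5 of 28 dpn or 2, 5 and 6 of 188 dpn raised the adjusted p to between 0.0501 and 0.0737. Fetus 5 is also the array with bright macrophage markers, whose part in its FKBP5 signal was not tested. Without it the rise at birth was 2.96 (adjusted p = 2.10e-05).

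The newborns with low EF1A ratio had a geometric mean FKBP5 signal of 1042 against 468 in animals 4 to 6, and without them the rise at birth was 2.07 (adjusted p = 0.00462). The dimmer FKBP5 probe set (Ssc.26042.1.S1_at) was above the background level at 188 dpn only, at 98.7, which was at least 1.32-fold above 28 dpn (adjusted p = 0.0148). Both probe sets correlated with r = 0.59 over the 24 arrays.

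TSC22D3 encodes GILZ, a leucine zipper protein that carries part of the anti-inflammatory action of glucocorticoids. By its brighter probe set (Ssc.2682.1.S1_at) the fetuses gave 2242 to 3607 (median 2986) and the newborns 3262 to 9902 (median 8251). At 28 dpn the range was 6292 to 8419 (median 7082) and at 188 dpn 6544 to 13012 (median 8147). Only newborn 5, at 3262, fell within the fetal range, and from 28 dpn on every animal lay above every fetus.

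The level of TSC22D3 was 2.37-fold higher at 1 dpn than at 94 dpc (1.25 ± 0.24, adjusted p = 0.000345) and 2.96-fold higher at 188 dpn than at 94 dpc (1.56 ± 0.24, adjusted p = 1.15e-05). Among the 3 postnatal stages no difference passed, the widest being 0.32 between 1 and 188 dpn (adjusted p = 0.329). Here too the newborns split, with 9814 to 9902 in animals 1 to 3 and 3262 to 6689 in animals 4 to 6. Without animals 1 to 3 the rise at birth was 0.73 (adjusted p = 0.0236), and the difference between 188 and 1 dpn became 0.84 (adjusted p = 0.00897).

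The second TSC22D3 probe set (Ssc.2682.2.S1_at) disagreed on day 1. It gave 9.13 to 215 at 94 dpc and 5.77 to 114 at 1 dpn, then 167 to 382 at 28 dpn and 149 to 679.6 at 188 dpn. The newborn level of 20.9 was under the background and at least 1.08-fold lower than the fetal 81.0 (adjusted p = 0.0391), where the brighter probe set had risen. That call was lost in 13 of 36 alternatives, both other scalings among them. From 1 dpn it was at least 3.64-fold higher at 28 dpn (adjusted p = 0.000703) and at least 4.27-fold higher at 188 dpn (adjusted p = 0.000131). The probe sets correlated with r = 0.25 over the 24 arrays, and at 28 and 188 dpn both lay above their fetal level, though for the dimmer one only 188 dpn passed (1.98, adjusted p = 0.0288), and not without fetus 5 (1.35, adjusted p = 0.0883) or without any 1 of animals 4 to 6 of 188 dpn.

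KLF9, a zinc finger transcription factor induced by glucocorticoids and thyroid hormone, separated the fetuses from all later stages. Its brighter probe set (Ssc.16664.1.A1_at) gave 504 to 778 at 94 dpc (median 609), 856 to 3809 at 1 dpn (median 1757), 1167 to 1965 at 28 dpn (median 1708) and 2409 to 3735 at 188 dpn (median 3055). No fetus reached the lowest later animal, and 28 and 188 dpn did not overlap either. The newborns spread most, with a log2 SD of 0.81 against 0.20 to 0.31 in the other stages.

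KLF9 rose 3.01-fold across birth (1.59 ± 0.27, adjusted p = 9.79e-05), or by 1.31 without newborns 1 to 3 (adjusted p = 0.00255). Its level was 4.88-fold that of 94 dpc at 188 dpn (2.29 ± 0.27, adjusted p = 3.34e-07). The step from 28 to 188 dpn was 1.93-fold (0.95 ± 0.27, adjusted p = 0.0181), and without the 3 liver-rich arrays it was 1.08 with an adjusted p of 0.0584. Against 1 dpn the 188 dpn level was 1.62-fold (0.70, adjusted p = 0.0454), a call that was lost in 22 of 37 alternatives, among them quantile normalization (0.61, adjusted p = 0.0726) and the omission of any 1 of 16 single arrays. The second KLF9 probe set, whose gene number was not found, gave signals of 8.21 to 207 over all arrays, around the background level, and passed in no comparison.

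Within the newborns FKBP5 and KLF9 ordered the animals alike: animals 1, 2 and 4 had the 3 highest signals of both genes, followed by 3, 5 and 6. In TSC22D3 animals 1 to 3 were highest, animal 4 followed at 6689, and animals 5 and 6 were again the lowest. HSD11B1 had another order there, with animals 4 and 6 highest at 1766 and 1709. Such a shared order within 6 arrays is a description. The values of an array share its scaling and its RNA quality, and animals 1 to 3 are those with the low EF1A ratio.

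SGK1, a kinase that glucocorticoids induce and that acts on ion channels and cell survival, went down with age. Its signals were 1361 to 1840.3 at 94 dpc (median 1413), 599.6 to 2061 at 1 dpn (median 1169.9), 799 to 1243 at 28 dpn (median 1104) and 529 to 1011 at 188 dpn (median 688). Every fetus lay above every animal of 28 and 188 dpn, while the newborns overlapped all 3 other stages. No step between neighbouring stages passed (-0.40, -0.10 and -0.60 with adjusted p of 0.207, 0.810 and 0.0925). Despite the lack of overlap, the difference of 28 dpn to 94 dpc did not pass either (-0.51, adjusted p = 0.113), except in 2 of 36 alternatives.

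Over the whole period SGK1 fell 2.15-fold, from 1513 at 94 dpc to 704 at 188 dpn (-1.10 ± 0.23, adjusted p = 0.000510). After centring each array on its median this difference was -0.57 with an adjusted p of 0.0583, whereas quantile normalization gave -0.96 (adjusted p = 0.00143) and leaving out the liver-rich arrays -1.20 (adjusted p = 0.00399). The 1.63-fold fall from 1 to 188 dpn (-0.70, adjusted p = 0.0217) did not pass without the 3 newborns of low EF1A ratio (-0.56, adjusted p = 0.169) or without the liver-rich arrays (-0.80, adjusted p = 0.0567), nor without any 1 of newborns 2 and 6 and animals 4 and 6 of 188 dpn. Newborn 6, the highest of its stage at 2061, also had the highest summed signal of 8 fibroblast markers among the newborns, 67866 against 24960 to 38999 in the others. In the fetuses that sum lay between 58087 and 66736, at 28 dpn between 22649 and 32972, and by 188 dpn between 14259 and 22325. Its part in the SGK1 fall was not tested. Without newborn 6 the fall of SGK1 across birth was -0.57 with an adjusted p of 0.0491.

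DUSP1, the phosphatase that switches off stress-activated MAP kinases, followed neither course. The fetuses gave 3688 to 7674 (median 4526), the newborns 2763 to 4849 (median 3479.6), the animals of 28 dpn 3174 to 9662 (median 4440.0) and those of 188 dpn 5732 to 9142 (median 6895). Every animal of 188 dpn was above every newborn, and all other pairs of stages overlapped. That was also the only comparison to pass, with a 2.00-fold rise (1.00 ± 0.24, adjusted p = 0.00240). Without newborns 1 to 3 its adjusted p was 0.0227, and without the liver-rich arrays 0.0261.

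Some other DUSP1 differences turned on the scaling or on 1 animal. The fall across birth was -0.51 (adjusted p = 0.117) as deposited and -0.85 (adjusted p = 0.00947) after quantile normalization. The difference of 188 dpn to 94 dpc was 0.49 (adjusted p = 0.118), 1.02 after median centring (adjusted p = 0.00285) and 0.02 after quantile normalization (adjusted p = 0.952). Animal 2 of 28 dpn had the highest signal of its stage for DUSP1, 9662, and for HSD11B1, 2050. Without it the rise from 28 to 188 dpn passed for DUSP1 (0.79, adjusted p = 0.0167) and for HSD11B1 (0.77, adjusted p = 0.0271), which it did not with all arrays.

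**Figure D4:**
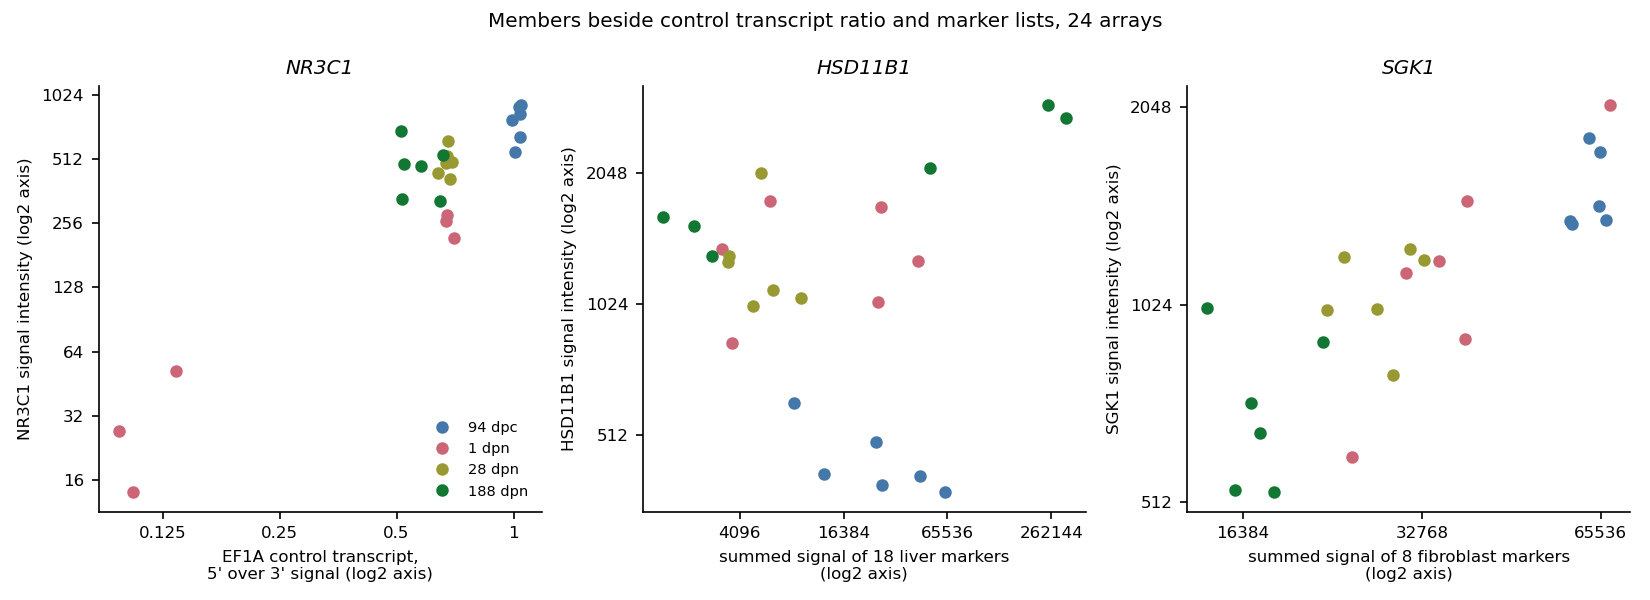
Signals of 3 members (log2 axes) against a control ratio or a sum of markers, 1 point per array coloured by stage: NR3C1 against the 5′ to 3′ ratio of EF1A, HSD11B1 against the summed signal of 18 liver markers and SGK1 against that of 8 fibroblast markers. The 3 newborns with ratios of 0.0963 to 0.135 have the lowest NR3C1 signals, the 3 liver-rich arrays of 188 dpn lie at HSD11B1 signals of 2107 to 2934, and the fetuses lie at the upper right for SGK1, beside newborn 6.

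The genes whose log2 signals ran most like each member over the 24 arrays were taken from 5474 genes with a mean above background. The points share arrays, stages and scaling. For NR3C1 these were ZNF146 (r = 0.953), DARS (0.945) and RSU1 (0.930), and all of them were lowest in newborns 1 to 3, as in ZNF146 with 15.1 to 39.2 against 114 to 153 in newborns 4 to 6. Over the 21 arrays without these newborns the r values were 0.72, 0.59 and 0.68. The likeness to NR3C1 thus rested in large part on those 3 arrays.

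For FKBP5 the nearest genes were SH3BP5 (r = 0.882), BCL2L13 (0.877) and MON1A (0.874). MON1A recurred for TSC22D3 (0.921), beside ROMO1 (0.945) and CUTA (0.922), and for KLF9 (0.912), beside CEBPB (0.913) and PSMD11 (0.892). HSD11B1 ran closest to LPIN1 (0.916), a lipid phosphatase whose level rose from 296 to 2437 between 94 dpc and 188 dpn, then to BTBD6 (0.898) and ATG4D (0.892). SGK1 ran with the matrix gene THBS2 (0.860), whose level went from 8656 at 94 dpc to 594 at 188 dpn, with FNDC1 (0.853) and with PAMR1 (0.849). The genes most like DUSP1 were the immediate early gene FOS (0.817), at 451 at 1 dpn and 8203 at 188 dpn, then YPEL3 (0.743) and NR1H3 (0.740).

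Among the proteins that hold the receptor ready, 12 of a list of 14 chaperones and co-chaperones were measured. From 94 dpc to 1 dpn 4 rose and 2 fell (10.1% and 20.8% of all probe sets). The list median was 0.27 against -0.15 for all probe sets. After quantile normalization 2 rose and 3 fell. BAG1, which binds HSP70 and the receptor, rose (0.84 ± 0.14, adjusted p = 0.000114), as did HSPA8, the brightest of the list (0.79 ± 0.14, adjusted p = 0.000232). DNAJA1, an HSP40, fell (-1.07 ± 0.25, adjusted p = 0.00262). From 1 to 28 dpn PTGES3, the p23 co-chaperone that stabilises the receptor complex, rose (1.18 ± 0.16, adjusted p = 2.00e-05) together with HSPA4 (1.17 ± 0.19, adjusted p = 0.000193).

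From 28 to 188 dpn 3 chaperones rose (HSP90AA1, BAG1 and ST13), and none did without the liver-rich arrays. Of all probe sets 4.12% rose in that comparison. Over the span from 94 dpc to 188 dpn 7 of the 12 chaperones were higher and none lower as deposited (12.5% and 27.4% of all). After quantile normalization 3 were lower. PTGES3 led with 1.55 ± 0.16 (adjusted p = 5.25e-08), from a level of 945 to 2768.

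Of 14 receptor coregulators, which link the receptor to chromatin, 8 were measured. From 94 dpc to 1 dpn 3 fell and none rose (20.8% and 10.1% of all probe sets), with a list median of -0.44. Without newborns 1 to 3 the count was 5. The 3 were the coactivators NCOA2 (-1.31 ± 0.28, adjusted p = 0.00109) and NCOA1 (-1.21 ± 0.15, adjusted p = 2.36e-06) and the histone deacetylase HDAC2 (-1.28 ± 0.22, adjusted p = 0.000150), which rose again by 28 dpn (1.07, adjusted p = 0.00158). At 188 dpn NCOA1, SMARCA4 and NCOR1, the brightest of the list, were lower than at 94 dpc, with NCOA1 at -1.39 (adjusted p = 9.22e-08). After median centring 1 of the 3 passed, so the count depends on the scaling. Of all probe sets 27.4% were lower at 188 dpn than at 94 dpc.

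Other known targets in metabolism and muscle were measured for 18 of 24 genes. Across birth 7 rose and 1 fell (10.1% and 20.8% of all), with a list median of 0.51 against -0.15 for all probe sets. PDK4, which holds back glucose oxidation, went from 370.3 to 6075 (4.04 ± 0.44, adjusted p = 6.02e-07). ANGPTL4, an inhibitor of lipoprotein lipase, went from 136 to 1790 (3.72 ± 0.26, adjusted p = 1.23e-09), and LPIN1 rose by 2.19 ± 0.20 (adjusted p = 5.24e-08). The gene that fell was MSTN, the growth inhibitor myostatin, from 223 to under the background level (at least 2.99-fold, adjusted p = 4.95e-05). TXNIP, the brightest, rose by 1.04 ± 0.18 (adjusted p = 0.000122). Without newborns 1 to 3, 5 rose and 2 fell. In this comparison 10 of 13 skeletal muscle markers and 4 of 9 fat cell markers were higher and 6 of 10 endothelial markers lower, and their part in these counts was not tested.

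From 1 to 28 dpn 2 of these targets rose (MSTN and FOXO3) and 3 fell (GLUL, TXNIP and ANGPTL4), and without newborns 1 to 3 this became 1 and none. Of all probe sets 11.6% rose and 9.10% fell there. From 28 to 188 dpn 7 targets rose and 1 fell (4.12% and 10.5% of all), with a list median of 0.92 against -0.18. FBXO32, the muscle ubiquitin ligase atrogin-1, went from 611 to 6839 (3.49 ± 0.44, adjusted p = 1.12e-05). KLF15, another glucocorticoid-induced factor of the family of KLF9, rose by 1.70 ± 0.23 (adjusted p = 2.62e-05) and CEBPB by 1.41 ± 0.31 (adjusted p = 0.00269). ANGPTL4 was the gene that fell (-1.59 ± 0.26, adjusted p = 0.000176). Without the liver-rich arrays 5 rose and 1 fell. At 188 dpn 11 of 18 were higher than at 94 dpc and none was lower (12.5% and 27.4% of all), with FBXO32 at 3.41 and CEBPB at 3.14. The 13 skeletal muscle markers moved in the same comparison, 13 higher and none lower, and their part here was not tested.

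**Figure D5:**
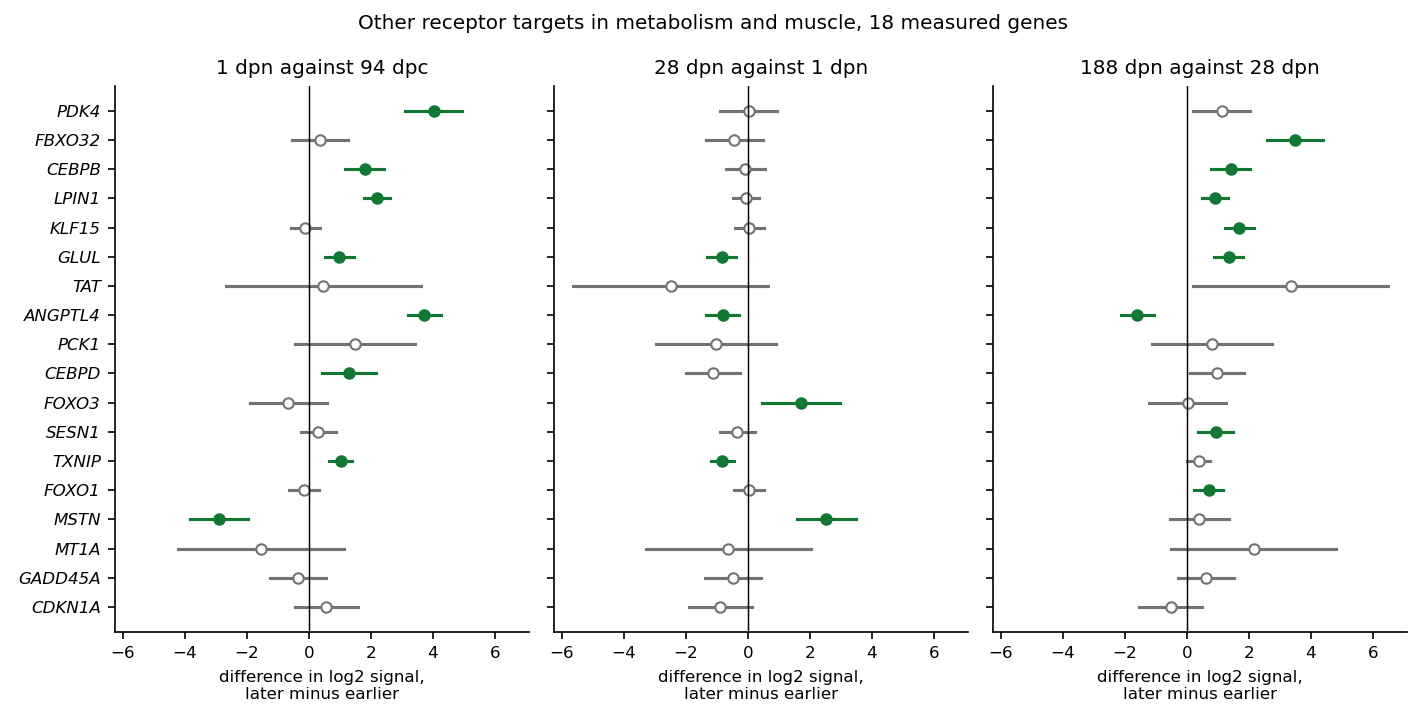
Log2 difference with 95% confidence interval of 18 other targets in metabolism and muscle in the 3 comparisons of consecutive stages, filled where the limma adjusted p is at most 0.05. PDK4 (4.04) and ANGPTL4 (3.72) lead across birth, FBXO32 (3.49) leads from 28 to 188 dpn, and ANGPTL4 lies to the left there at -1.59.

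A further set of targets, in defence, clock and transport, was measured for 8 of 20 genes. Across birth 2 rose and none fell: ATP1B1, the beta subunit of the sodium pump and the brightest of the set (1.70 ± 0.23, adjusted p = 9.52e-06), and the clock gene PER1 (0.86 ± 0.31, adjusted p = 0.0399). Of all probe sets 10.1% rose and 20.8% fell across birth. By 28 dpn ATP1B1 had fallen again (-0.92, adjusted p = 0.00684), as had CRISPLD2 (-1.17, adjusted p = 0.0421), and from 28 to 188 dpn no gene of the set passed.

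DUSP1 also belongs to the immediate early genes, which respond within minutes to many stimuli, and 19 of a list of 27 were measured. Across birth 7 fell and none rose (20.8% and 10.1% of all probe sets), with a list median of -0.41. After median centring 4 fell, and without newborns 1 to 3 it was 5. PPP1R15A (-2.06 ± 0.44, adjusted p = 0.00110), GADD45B (-2.0 ± 0.48, adjusted p = 0.00260), FOS (-1.92 ± 0.60, adjusted p = 0.0170) and KLF4 (-1.76 ± 0.37, adjusted p = 0.000941) fell most. From 28 to 188 dpn 3 rose and 2 fell, among them FOS (2.84 ± 0.60, adjusted p = 0.00208) and JUN (1.70 ± 0.34, adjusted p = 0.00151) upward and IER3 (-1.44, adjusted p = 0.00156) downward. Of all probe sets 4.12% rose and 10.5% fell in that step. The brightest, MCL1, rose between 1 and 28 dpn (0.95 ± 0.18, adjusted p = 0.000605). Of the other MAP kinase phosphatases 2 of 8 were measured: DUSP6 fell from 1458 to 472 across birth (-1.63 ± 0.26, adjusted p = 5.21e-05), and DUSP7 rose from 270.5 at 1 dpn to 479 at 28 dpn (0.82, adjusted p = 0.0115).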

How the data were processed

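The deposited table holds 1 linear signal intensity per probe set and array, made by the authors with GCOS 1.1.1 per the submitters' processing notes; the summary settings and scaling target are not given in the sources used here. Arrays had been scaled: their mean signals, with 2% of values trimmed from each end, lay between 498 and 499. Of 24118 probe sets 183 controls were left out, and 23935 were tested as log2 values with no filter and no added constant. One limma 3.58.1 model (R 4.3.3) with the 4 stages as groups, 20 residual degrees of freedom and moderated errors gave all comparisons. Symbols come from the platform annotation of 2016: it names 1 gene for 10069 tested probe sets, several for 198 and none for 13668. The background level is the 95th percentile of the signals of 17 Tag controls, and the mean of 39.2% of those tested lay below that. Of several probe sets of a gene, the brightest stood for it in lists. The medians and shares of all probe sets set beside the lists include dim probe sets and those without a symbol, so the sets compared are unlike.

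Members and gene lists were chosen with earlier results of these data known. Named were all members, per list and comparison up to 4 genes past the threshold with the largest differences plus the brightest gene, and per member the 3 genes with the highest Pearson r. The fit was tested on simulated data. Alternatives covered scaling, added constants, a filter, array weights, a trended prior, single stages and each array left out. Leaving out the 7 arrays that stand apart was chosen after seeing the data. Sequences were not used here. The arrays' number limits the precision, and depth does not apply.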

Additional observations from a re-analysis of the deposited data

Results flagged for a closer look

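Among 52 groups of 6 animals (13 probe sets in 4 stages), 4 had 1 animal far from the rest, with a gap to the nearest animal, over the whole range, above Dixon's 95% critical value for 6 samples. Chance gives about 1 in 20. For FKBP5 (Ssc.31104.1.A1_at), fetus 5 of 94 dpc gave 329 against 72.9 to 103 in the other fetuses. The same fetus gave 9.13 for TSC22D3 (Ssc.2682.2.S1_at) against 80.6 to 215. In NR3C1 at 28 dpn, animal 6 gave 309 with Ssc.15952.1.S1_at against 187 to 221, and animal 4 gave 29.6 with Ssc.15952.1.A1_at against 72.9 to 97.6.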

How the results depend on the processing

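Of 33 member differences past the threshold 16 passed in every alternative run for them, and of 45 not past it 15 passed in some. Of these 33, 1 changed sign: TSC22D3 in 1 dpn against 94 dpc, which was -0.35 (adjusted p = 0.505) as the mean of both probe sets. With that mean KLF9 in the same comparison was 0.67 (adjusted p = 0.117) and NR3C1 in 28 dpn against 1 dpn 0.67 (adjusted p = 0.0681). The count of member probe sets past the threshold moved as follows. At an adjusted p of at most 0.01 it was 5 for 1 dpn against 94 dpc, 0 for 188 against 28 dpn and 4 for 188 against 1 dpn. Without the 3 liver-rich arrays it was 2 and 4 in the latter comparisons, and with only both stages compared in the fit it was 4 for 188 against 1 dpn. With each array left out in turn the count ran from 2 to 5 for 188 against 28 dpn and from 4 to 7 for 188 against 1 dpn, and from 6 to 9 for 1 dpn against 94 dpc. The causes were not tested. Levels under the background of 74.7 at some stage limit 5 of the 13 probe sets, and unknown litters limit all p-values.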
